A study of Mus musculus with 27 samples.

Results

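Fatty acid synthesis in the mouse liver was followed through a reproductive cycle by the transcripts of 10 genes: 8 lipogenic enzyme genes or their close partner (Acly, Acaca, Acacb, Fasn, Scd1, Elovl6, Me1 and Thrsp) and the genes of 2 transcription factors known to drive them (Srebf1 and Mlxipl). The genes were named from the known pathway, with earlier results of these data known, and were matched by Ensembl identifier. All 10 were found among the 51826 genes listed, and all 10 passed the filter on low counts that left 16428 genes for testing. The smallest count of any of them in any library was 906, for Acacb in ID4_15. The spread between animals was at least 3 times the counting error in 68 of the 70 combinations of gene and stage, all but Acacb in LAC and Elovl6 in ID4.

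Whole livers came from 27 BALB/c mice, an inbred laboratory strain, with 1 bulk RNA sequencing library per animal. The labels name no transgene, deletion or drug. The groups were nulliparous mice (NUL, n = 4), mice on day 10 of lactation (LAC, n = 3), mice at 2, 4, 6 and 8 days after weaning (ID2, n = 3, ID4, n = 4, ID6, n = 6, and ID8, n = 3) and mice 4 weeks after weaning (REG, n = 4). Parous mice had been bred at 10 to 12 weeks of age, and in the groups after weaning the pups had been removed between days 10 and 14 of lactation. The age at collection, the feeding state and the hour of collection are not given in the sources used here. Levels below are counts scaled to library totals adjusted by TMM, edgeR's scaling between libraries (CPM), given per animal or as mean ± SD, and comparisons between genes use the length-scaled TPM.

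Liver cells build fatty acids from surplus carbohydrate. Citrate leaves the mitochondria and is cleaved to acetyl-CoA, which is carboxylated to malonyl-CoA and condensed to palmitate, and palmitate is then elongated, desaturated and joined to glycerol. In liver the pathway is known to rise after feeding, under insulin through SREBP1c (encoded by Srebf1) and under glucose through ChREBP (encoded by Mlxipl), and to fall in fasting. Much of the control of both factors is exerted on the protein, by cleavage, phosphorylation and nuclear entry, which RNA sequencing does not measure.

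Promoter sequences are shown for 3 of the 4 enzyme genes whose windows held a motif more than once, and for the regulator gene whose windows held an E-box and a sterol regulatory element, the motifs these factors are known to bind. RefSeq windows on GRCm38.p6, from 250 bases before to 50 after each annotated start, were given for 9 of the 10 genes, all but Scd1, 13 windows in all, and the 250 upstream bases of 5 of them are printed 5′ to 3′ on the strand of the gene. Capitals mark letters matching a searched motif on either strand: the E-box CACGTG, the sterol regulatory element TCACNCCAC, the CCAAT box CCAAT and the GC box GGGCGG. The first is Fasn, chr11:120824548-120824797, minus strand.
Fasn: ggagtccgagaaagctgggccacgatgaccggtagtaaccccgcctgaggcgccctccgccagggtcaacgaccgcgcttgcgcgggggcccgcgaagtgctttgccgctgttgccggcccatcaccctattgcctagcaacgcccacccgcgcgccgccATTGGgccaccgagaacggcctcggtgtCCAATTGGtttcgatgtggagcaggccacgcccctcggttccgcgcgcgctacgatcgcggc
The second is Thrsp, chr7:97417551-97417800, minus strand.
Thrsp: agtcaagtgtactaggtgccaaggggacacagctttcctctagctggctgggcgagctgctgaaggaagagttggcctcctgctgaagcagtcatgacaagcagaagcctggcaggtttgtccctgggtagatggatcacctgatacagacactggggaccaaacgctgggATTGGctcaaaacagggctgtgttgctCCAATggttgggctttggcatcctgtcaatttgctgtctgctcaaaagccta
The third is Acly, chr11:100528001-100528250, minus strand.
Acly: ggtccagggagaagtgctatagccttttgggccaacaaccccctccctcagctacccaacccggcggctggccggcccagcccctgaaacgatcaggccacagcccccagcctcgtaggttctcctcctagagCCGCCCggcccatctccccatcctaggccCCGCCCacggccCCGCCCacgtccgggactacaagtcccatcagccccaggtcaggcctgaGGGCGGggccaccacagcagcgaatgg
The other two are the start sites of Mlxipl at chr5:135089640-135089889 and chr5:135106641-135106890, plus strand.
Mlxipl upstream start: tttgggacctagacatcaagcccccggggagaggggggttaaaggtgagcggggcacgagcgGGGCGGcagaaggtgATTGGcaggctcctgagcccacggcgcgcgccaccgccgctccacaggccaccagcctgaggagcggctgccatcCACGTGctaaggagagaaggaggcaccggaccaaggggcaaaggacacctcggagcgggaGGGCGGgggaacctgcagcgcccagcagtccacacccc
Mlxipl downstream start: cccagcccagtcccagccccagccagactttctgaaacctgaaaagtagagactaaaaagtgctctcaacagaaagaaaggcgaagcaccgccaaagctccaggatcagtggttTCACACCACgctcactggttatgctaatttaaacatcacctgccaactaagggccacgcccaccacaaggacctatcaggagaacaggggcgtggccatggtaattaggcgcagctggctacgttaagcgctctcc

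The Fasn sequence held 3 CCAAT boxes, whose leftmost bases lay 90, 62 and 59 bases before the start, the last pair sharing letters on opposite strands. Thrsp held 2, at 79 and 52 bases before its start. Acly held 4 GC boxes between 117 and 27 bases before its start. Me1, not printed, also held 4 GC boxes in 1 window, and the windows of Acaca and Elovl6 held none of the motifs. Over all 13 windows of 300 bases, 8 held a CCAAT box and 5 a GC box, against 37.4% and 35.7% of the 32851 windows of all genes. An E-box stood in 1 of the 13 windows, 98 bases before the upstream start of Mlxipl, against 7.15% of all windows. The sterol regulatory element stood in 1 as well, 136 bases before the downstream start of Mlxipl, against 1.24% of all windows. The direct repeat of E-boxes 5 bases apart (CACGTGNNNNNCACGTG) was in 0 of the 13 windows and 0 of all windows. These matches are descriptions of letters and say nothing about binding.

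The libraries held 41120650 to 75664540 estimated counts. Reads of 16 libraries came from 2 sequencing runs and those of 11 from 1 run. All 4 ID4 libraries had 2 runs, as did 4 of 6 ID6, 3 of 4 NUL and 2 of 3 LAC libraries. In ID2 and ID8 it was 1 of 3, and in REG 1 of 4. Summed markers of hepatocytes (Alb, Apob, Ttr, Serpina1a and Cps1) lay between 86657 and 227507 CPM and were high in every library, as a liver sample should have. Adipocytes also express most of the 10 genes, and their markers (Adipoq, Lep, Retn, Plin1, Cfd and Adrb3) summed to 0.0451 to 12.8 CPM, highest in ID6_201, with Lep at 0 in 18 libraries. RNA of acinar pancreas, by 6 markers, reached 1012 CPM in ID2_31, 68.2 in ID4_15 and 21.7 in ID8_98b. The title numbers of the animals fell under 200 for all 3 ID8, 2 of 3 ID2 and 2 of 4 ID4 mice and at 200 or over for the other 20, without explanation in the labels. With all ID8 mice in 1 range, a fit with the range as a covariate separates it from that stage through the ID2 and ID4 mice alone.

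One animal stood apart before any comparison. The level of each of the 8 enzyme genes was set against the NUL mean as a difference in log2(CPM + 1), and these differences were averaged per library. ID8_14 had a mean of 2.14, the highest of the 27 libraries, while ID8_101b had 0.457 and ID8_98b 0.0261. ID8_14 also held the highest single value of 8 of the 10 genes. Counts of calls, ratios and spreads that use ID8 are therefore given with and without it. The LAC libraries lay at 1.65 to 1.81 and the ID4 libraries at -1.55 to -1.39, so each of these stages was narrow and far from NUL. ID2 lay at -0.416 to 0.122, ID6 at -0.418 to 1.0 and REG at 0.0969 to 1.21.

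**Figure D1:**
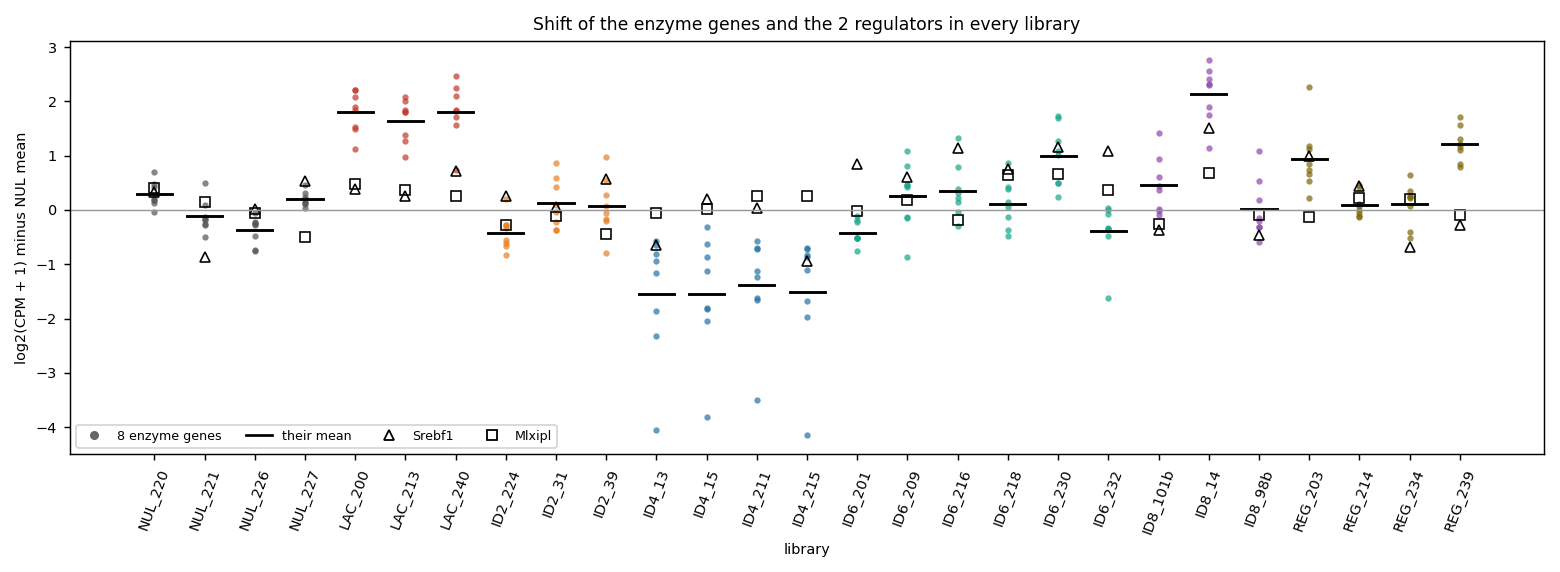
Difference from the NUL mean in log2(CPM + 1) for each library on the x axis: dots are the 8 enzyme genes, black bars their mean, open triangles Srebf1 and open squares Mlxipl. The LAC bars sit at 1.65 to 1.81, the ID4 bars at -1.55 to -1.39 with Scd1 as the lowest dot, and ID8_14 has the highest bar at 2.14.

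Tested jointly over the 7 stages with edgeR and adjusted by Benjamini-Hochberg, all 8 enzyme genes differed, with adjusted p from 7.03e-07 for Scd1 to 0.00622 for Acly. Of all genes tested, 27% did. The adjusted p by the same edgeR test was 0.210 for Srebf1 and 0.276 for Mlxipl, so neither regulator transcript passed in this fit. Without ID8_14 Srebf1 passed as the ninth gene (edgeR adjusted p = 0.0323), where 27.5% of all genes did. It passed in no other fit that left out 1 animal. Of the alternatives of other kinds, only the clock covariate described below called it (edgeR adjusted p = 0.0121). Mean CPM was highest in LAC for 9 of the 10 genes and lowest in ID4 for 9 of the 10. The exceptions were Srebf1, highest in ID6, and Mlxipl, lowest in ID2. That Srebf1 was lowest in ID4 rested on ID8_14. ID8_101b and ID8_98b had 272 and 255 CPM of Srebf1, both below its ID4 mean of 294. With the stages of each gene placed in order of mean CPM, only 1 of the 60 neighbouring pairs passed the edgeR test, Scd1 in ID2 over ID4. Without ID8_14, 6 neighbouring pairs passed.

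**Figure D2:**
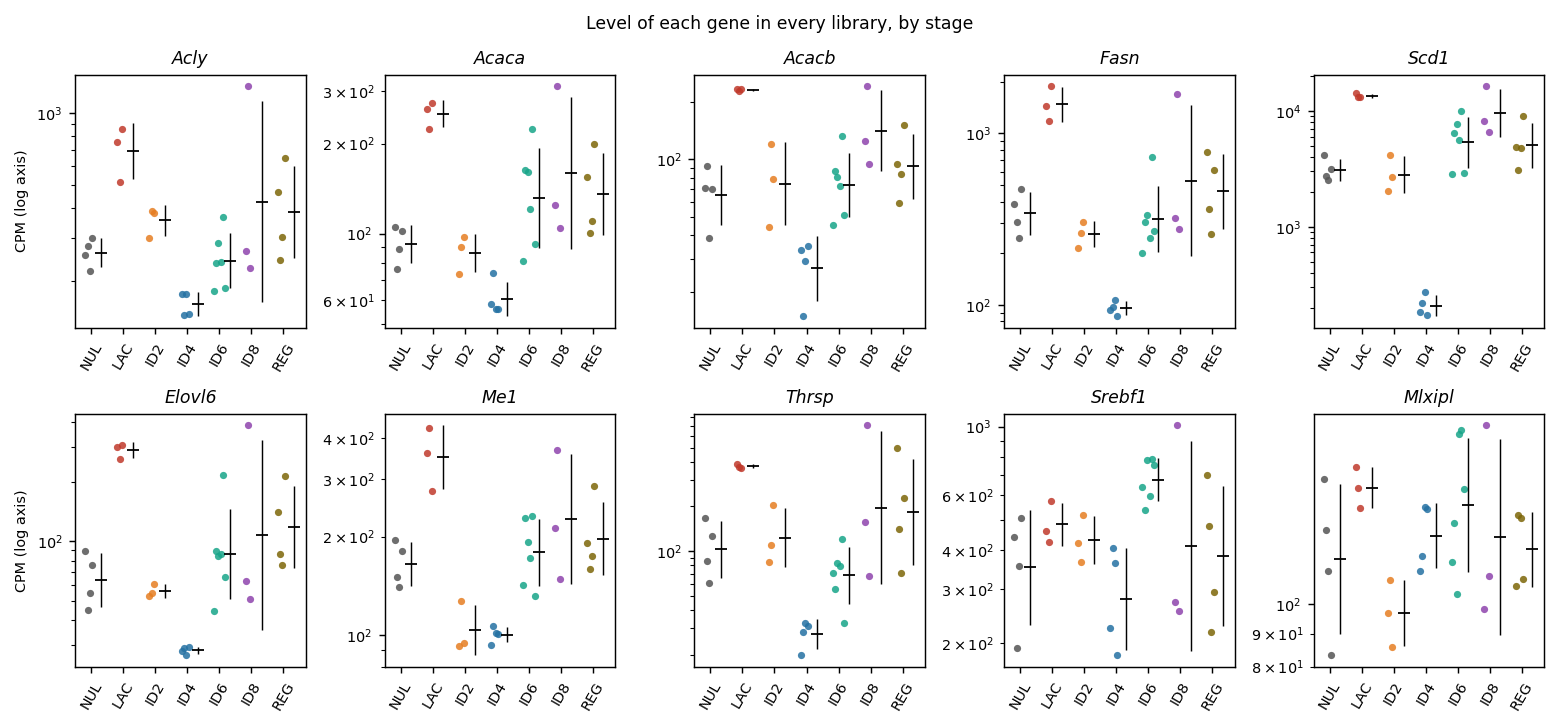
CPM on log axes for each of the 10 genes (panels), 1 dot per animal, by stage on the x axis; black marks give the mean and SD of log2 CPM, drawn back on the CPM scale. The LAC dots of the enzyme genes lie above all NUL dots, where 21.4% of all genes tested have no overlap. The ID4 dots of Scd1 lie between 172 and 272 CPM, and 1 ID8 dot lies far above the other 2 in most panels.

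Scd1 (ENSMUSG00000037071, chromosome 19, 44394455 to 44407879, GRCm38) encodes the desaturase that makes oleate and palmitoleate, and per length it had the highest mean of the 10 in every stage but ID4. In ID4 it had 41.8 to 68.9 TPM, below the mean of Srebf1 (106 TPM) and that of Mlxipl (72.7 TPM). Its CPM was 4134, 2723, 2538 and 3146 in the 4 NUL mice. It was 14149, 13065 and 13200 in LAC. It was 2027, 4134 and 2671 in ID2. The LAC mice all stood above every NUL and ID2 mouse, and the NUL and ID2 ranges overlapped.

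At ID4 the 4 values of Scd1 were 183, 219, 272 and 172 CPM. In ID6 they had a lowest value of 2865, a median of 6044 and a highest value of 9926. In ID8 they were 8198, 16353 and 6561, and in REG 4889, 3063, 4787 and 9065. The highest ID4 value, 272, stood below the lowest value of any other stage, 2027, and the ID4 mice numbered under 200 (183 and 219) lay between those numbered 200 and over. The span from the lowest to the highest of the 27 animals was 95.1-fold for Scd1 and between 2.27-fold (Mlxipl) and 35.8-fold (Thrsp) for the other 9 genes.

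The Scd1 transcript was 4.30-fold higher in LAC than in NUL (log2 change 2.10, SE 0.41, Benjamini-Hochberg adjusted p by edgeR 0.00211). It was 13.9-fold lower in ID4 than in ID2 (log2 change -3.80, SE 0.43, adjusted p by edgeR 2.34e-05) and 14.8-fold lower than in NUL. From LAC to ID4 it fell by 63.6-fold (log2 change -5.99, SE 0.48, adjusted p by edgeR 2.62e-08). From ID4 to ID6 it rose 27.9-fold (log2 change 4.80, SE 0.43, adjusted p by edgeR 4.44e-06). These calls held in every fit without 1 animal and under all 12 other alternatives run. In bulk liver, fewer cells of a type and less RNA per cell cannot be told apart, here and for the other genes.

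Fasn (ENSMUSG00000025153, chromosome 11, 120805846 to 120824547, GRCm38) encodes the synthase that assembles palmitate. Its CPM was 390, 303, 244 and 471 in NUL and 1445, 1191 and 1892 in LAC. It was 215.7, 264 and 303 in ID2 and 93.8, 96.7, 107 and 85.9 in ID4. The LAC mice stood above and the ID4 mice below every NUL mouse.

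In ID6 the Fasn level had a lowest value of 202, a median of 287 and a highest value of 730 CPM, in ID8 it was 320, 1703 and 275, and in REG 775, 361, 258 and 614. Fasn was 4.29-fold higher in LAC than in NUL (log2 change 2.10, SE 0.52, adjusted p by edgeR 0.0120) and 5.78-fold lower in ID2 than in LAC (log2 change -2.53, SE 0.59, adjusted p by edgeR 0.00631). Against NUL it was 3.67-fold lower in ID4 (log2 change -1.88, SE 0.50, adjusted p by edgeR 0.0355). Leaving out any 1 animal other than NUL_226 ended that last call, in 7 of 8 fits, with a largest edgeR adjusted p of 0.0892 without ID4_13.

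Acly (ENSMUSG00000020917, chromosome 11, 100476353 to 100528000) encodes the lyase that turns citrate into acetyl-CoA. It had 264 ± 35.2 CPM in NUL (SD, n = 4), 711 ± 177 in LAC (n = 3), 359 ± 50.2 in ID2 (n = 3) and 160 ± 18.2 in ID4 (n = 4). LAC did not overlap NUL, and the edgeR adjusted p was 0.0378 for a log2 fold change of 1.43 (SE 0.44). Leaving out any 1 animal other than LAC_213 ended this call, in 6 of 7 fits, with a largest edgeR adjusted p of 0.124 without LAC_240. Between LAC and ID4 the fall was 4.43-fold (edgeR adjusted p = 0.00136), and it held in all 7 fits without 1 animal.

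Acaca (ENSMUSG00000020532, chromosome 11, 84129672 to 84401651) and Acacb (ENSMUSG00000042010, chromosome 5, 114146535 to 114250761) encode the 2 acetyl-CoA carboxylases. The first supplies malonyl-CoA for synthesis in the cytosol, and the product of the second, at the mitochondrial surface, is known to restrain fatty acid entry into mitochondria. Acaca rose from 93.0 ± 13.3 CPM in NUL to 253 ± 25.6 in LAC (log2 change 1.44, SE 0.34, adjusted p by edgeR 0.00797). Acacb rose from 68.0 ± 22.0 to 233 ± 2.45 CPM (log2 change 1.77, SE 0.42, adjusted p by edgeR 0.00901). The 3 LAC mice had nearly equal Acacb levels, 234.1, 229.9 and 234.2 CPM, a coefficient of variation of 1.05% where counting error alone gives 0.861%. Without LAC_213 that coefficient was 0.0323%.

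At ID4 the Acacb level was 33.3, 14.96, 29.2 and 35.2 CPM, below all NUL mice (38.8 to 92.3), but the difference from NUL did not pass (edgeR adjusted p = 0.0748). Acaca had 58.3, 73.6, 55.9 and 55.7 CPM at ID4, also below all NUL mice (76.0 to 105), with an edgeR adjusted p of 0.312. Per length, Acaca was the more abundant carboxylase in the mean of every stage, with a TPM ratio of Acaca over Acacb between 1.47 ± 0.312 in ID8 (SD, n = 3) and 3.33 ± 2.31 in ID4 (n = 4). The ID4 ratios ran from 1.82 to 6.78 and the NUL ratios from 1.04 to 3.51, so they overlapped. The ID4 mean rests on ID4_15, a library with acinar pancreas RNA, and was 2.18 ± 0.320 without it (n = 3). Without ID8_14 the ID8 mean was 1.32 (n = 2).

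Elovl6 (ENSMUSG00000041220, chromosome 3, 129532355 to 129638495) encodes the elongase that converts palmitate to stearate. Its mean was 66.6 ± 20.4 CPM in NUL, 290 ± 25.9 in LAC, 56.4 ± 4.41 in ID2 and 28.2 ± 1.21 in ID4. The 4 ID4 mice lay between 26.6 and 29.2 CPM, the narrowest spread of Elovl6 in any stage. LAC against NUL gave 2.12 on the log2 scale (SE 0.56, adjusted p by edgeR 0.0169), a call lost without NUL_226 (edgeR adjusted p = 0.0510). An antisense gene, Gm35986, overlaps Elovl6 exons, and the use of strand in counting is not given in the sources used here, but it held 34 to 423 counts against at least 1758 for Elovl6.

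Me1 (ENSMUSG00000032418, chromosome 9, 86581371 to 86695953) encodes malic enzyme, which supplies NADPH for the synthase. Its CPM was 195, 150, 140 and 181 in NUL and 361, 430 and 275 in LAC. In ID2 it was 92.3, 127 and 94.4, and in ID4 it was 93.3, 106.1, 101.2 and 100.4. Me1 was thus already as low at ID2 as at ID4, and the log2 difference between these stages was -0.06 (SE 0.26, edgeR adjusted p = 0.946). The fall from LAC to ID2 was 3.39-fold (log2 change -1.76, SE 0.28, adjusted p by edgeR 0.000285) and held in all 6 fits without 1 animal.

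Thrsp (ENSMUSG00000035686, chromosome 7, 97412938 to 97417730) encodes Spot 14, a small protein known to be induced with the lipogenic enzymes. Its CPM was 167, 86.1, 60.5 and 127 in NUL and 385, 372 and 364 in LAC, without overlap. With a log2 fold change of 1.76 (SE 0.64) the difference missed the threshold (edgeR adjusted p = 0.0837). At ID4 Thrsp had 19.7, 28.2, 32.8 and 31.3 CPM, and 84.2, 110 and 204 at ID2. The ID4 mice all stood below the NUL and ID2 mice, with edgeR adjusted p of 0.0730 against NUL and 0.0883 against ID2.

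In ID6 Thrsp had a lowest value of 32.7, a median of 75.4 and a highest value of 121 CPM, which still overlapped ID4. In REG it was 497, 141, 71.2 and 229 CPM, the widest spread of any of the 10 genes in REG (a coefficient of variation of 79.5%). Without REG_203 that coefficient was 53.9%, below those of Elovl6 (61.2%), Acly (54.9%) and Scd1 (54.8%). In ID8 Thrsp had 157, 706 and 67.7 CPM, and it alone of the 10 genes passed in ID8 against ID6 (log2 change 2.07, SE 0.57, adjusted p by edgeR 0.0436). That call was not kept in 7 of 9 fits that left out 1 animal, and without ID8_14 the edgeR adjusted p was 0.587. Thrsp was also called higher than in ID4 in ID8 (edgeR adjusted p = 0.00726) and in REG (edgeR adjusted p = 0.00766). Without ID8_14 the edgeR adjusted p for ID8 against ID4 was 0.123.

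Srebf1 (ENSMUSG00000020538, chromosome 11, 60199089 to 60222581) gives rise to SREBP1a and SREBP1c, whose reads are pooled in its count. Its CPM was 442, 193, 355 and 508 in NUL, 462, 423 and 578 in LAC and 421, 365 and 521 in ID2. In ID4 it was 224.2, 405, 362 and 183. The ranges of NUL, LAC and ID2 overlapped, and so did those of NUL and ID4. LAC against NUL gave 0.38 on the log2 scale (SE 0.44, adjusted p by edgeR 0.666), where 7 of the 8 enzyme genes rose.

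In ID6 the Srebf1 level had a lowest value of 540, a median of 694 and a highest value of 789 CPM. All 6 ID6 mice stood above all NUL mice and all ID4 mice. The rise from ID4 was 2.32-fold, with a log2 fold change of 1.22 (SE 0.39), and just missed the threshold (edgeR adjusted p = 0.0564). It passed in 7 of the 12 alternatives other than leaving out an animal, among them DESeq2 (adjusted p = 0.0160) and both TPM scales. Against NUL the edgeR adjusted p was 0.365. In ID8 Srebf1 had 272, 1009 and 255 CPM, with ID8_14 again far above the others, and in REG 700, 479, 217.8 and 292. The antisense neighbour Rai1 overlaps Srebf1 exons and held 483 to 1344 counts, against at least 10492 for Srebf1.

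Mlxipl (ENSMUSG00000005373, chromosome 5, 135089890 to 135138382) encodes ChREBP, with its forms pooled in the count. It was the steadiest of the 10 genes, with means from 97.3 ± 11.5 CPM in ID2 (SD, n = 3) to 152 ± 11.2 in LAC (n = 3). Its CPM was 163, 151 and 141 in LAC and 96.9, 109 and 85.9 in ID2. Those stages did not overlap, beside 35.7% of all genes without overlap. The difference of -0.64 on the log2 scale (SE 0.24) missed the threshold (edgeR adjusted p = 0.0669). It passed in 2 of the 12 alternatives other than leaving out an animal. These were DESeq2 (adjusted p = 0.0230) and the fit of these 2 groups alone (edgeR adjusted p = 0.00189). In ID4, where the enzyme transcripts were lowest, Mlxipl had 113, 119, 141 and 140 CPM, within the NUL range of 83.3 to 156.

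Read stage by stage, most of the pathway was higher in lactation. In LAC against NUL 7 of the 10 genes rose and 0 fell (Acly, Acaca, Acacb, Fasn, Scd1, Elovl6 and Me1), where 11.2% of all genes tested were called. The LAC and NUL animals did not overlap for 8 of the 10 genes, the enzyme genes, beside 21.4% of all genes. The median log2 fold change of the 10 was 1.6, beside -0.01 over all genes tested. The summed TPM of the 10 went from 1478 ± 303 in NUL to 4870 ± 239.5 in LAC. Scd1 made up 56.0% of that sum in NUL and 68.7% in LAC.

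From lactation to 2 days after weaning 6 of the 10 genes fell (Acaca, Acacb, Fasn, Scd1, Elovl6 and Me1), where 16.1% of all genes were called, with a median log2 fold change of -1.53 beside 0.02 over all genes. Acacb and Elovl6 no longer passed in 5 and 2 of the 6 fits that left out 1 animal, with largest edgeR adjusted p of 0.129 and 0.0533, both without ID2_224, and with the title number range as a covariate 4 of the 6 calls were left. Acly, the other gene called higher in LAC, was not called lower in ID2 (edgeR adjusted p = 0.171). Against NUL 0 of the 10 passed in ID2 by edgeR, where 3.24% of all genes were called. At an unadjusted p under 0.05 it was 1 (Me1), beside 16.9% of all genes, and DESeq2 called 0.

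Between days 2 and 4 Scd1 fell again, to below its nulliparous level. Of the 10 genes it alone passed in ID4 against ID2, where 1.49% of all genes were called, while 6 of the 10 stood wholly lower in ID4 and 1, Mlxipl, wholly higher, beside 16.2% of all genes without overlap. In ID4 against NUL 2 of the 10 genes fell, Scd1 and Fasn, where 4.25% of all genes were called. The ID4 and NUL animals did not overlap for 8 of the 10 genes, the enzyme genes, beside 11.6% of all genes. Against LAC all 8 enzyme genes were lower in ID4, where 22.4% of all genes were called, and all 8 held when any 1 animal was left out. With the clock covariate Srebf1 was called lower there as well (log2 change -1.003, adjusted p by edgeR 0.0432). The count against NUL was 5 with DESeq2, 7 when the fit held these groups alone and 1 with the title number range as a covariate. These comparisons share their NUL, LAC or ID4 animals and are not independent of each other.

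Scd1 fell out of proportion to the rest of the pathway. The TPM ratio of Scd1 over Fasn was 11.7 ± 2.20 in NUL (SD, n = 4), 12.1 ± 1.97 in LAC (n = 3) and 15.9 ± 4.26 in ID2 (n = 3). It was 3.02 ± 0.476 in ID4 (n = 4), with a highest value of 3.42 against a lowest NUL value of 9.26. In ID6 it was 22.9 ± 6.45 (n = 6) and in ID8 27.1 ± 10.6 (n = 3), where ID8_14 had 14.9 and the other two 33.0 and 33.5. In REG it was 16.3 ± 8.41 (n = 4), from 7.20 to 25.9, so it overlapped NUL. The share of Scd1 in the summed TPM of the 10 genes was 13.1% in ID4, with a sum of 405 ± 64.8, and 65.5% in ID6, with a sum of 2411 ± 967. These ratios were set side by side after their values were seen and carry no test.

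Markers of other cells differed between the stages as well. Summed Kupffer cell markers (Clec4f, Cd5l, Vsig4 and Timd4) were 498 to 551 CPM in ID4, 386 to 644 in ID6 and 188 to 270 in LAC, against 286 to 366 in NUL. Stellate cell markers (Dcn, Lrat and Reln) summed to 153 to 161 CPM in LAC and 197 to 251 in NUL, and those of sinusoidal endothelium (Stab2, Clec4g and Oit3) to 126 to 144 in LAC and 188 to 202 in ID8, against 159 to 176 in NUL. The hepatocyte markers summed to 92578 to 102233 CPM in ID4 and 183034 to 227507 in LAC, against 94308 to 121024 in NUL. They summed to 136847 to 148154 CPM in ID2 and 121525 to 129431 in ID8, all above NUL. Most of each sum was Alb, which alone had 67203 to 203208 CPM over all libraries, highest in LAC_213. Apob reached at most 4941 CPM (ID4_13), Ttr 8526 (NUL_226), Serpina1a 9455 (LAC_213) and Cps1 6846 (ID2_39). Red blood cell transcripts (Hbb-bs, Hbb-bt, Hba-a1, Hba-a2 and Alas2) summed to 53.1 to 264 CPM in ID6 and 19.9 to 35.03 in ID8, against 335 to 712 in NUL and 407 to 1027 in ID4. In LAC they summed to 768 to 1016 CPM, all above NUL. Lipogenic transcripts are known to vary over the day. A clock index, the mean log2 CPM of 4 clock genes of 1 phase minus that of 9 of the opposite phase, ran from -0.926 to 0.793 in ID2 and from 0.625 to 1.5 in ID8, against 1.43 to 2.51 in NUL. It ran from 0.613 to 1.72 in ID4 and from 1.93 to 2.43 in ID6, without overlap, and from 0.922 to 2.04 in LAC. The part of these differences in the changes of the 10 genes was not tested.

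From day 4 to day 6 most of the enzyme transcripts rose again. In ID6 against ID4, 6 of the 10 genes rose (Acaca, Acacb, Fasn, Scd1, Elovl6 and Me1) and 0 fell, where 8.53% of all genes were called. After Scd1 the largest of these rises were in Fasn, 3.63-fold (log2 change 1.86, SE 0.47, adjusted p by edgeR 0.0185), and Elovl6, 3.47-fold (log2 change 1.79, SE 0.50, adjusted p by edgeR 0.0303). Acly and Thrsp did not pass (edgeR adjusted p of 0.330 and 0.140). Without ID4_13 the count was 2, without ID4_215 it was 3, and with the title number range as a covariate it was 2. The Elovl6 call was lost in 6 of 10 fits that left out 1 animal, with a largest edgeR adjusted p of 0.0848 without ID4_13. The Fasn call was lost in 2 of these fits. Against NUL 0 of the 10 passed in ID6 by edgeR, where 1.08% of all genes were called. At an unadjusted p under 0.05 it was 2, Scd1 and Srebf1, beside 11.9% of all genes, and DESeq2 called 0.

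**Figure D3:**
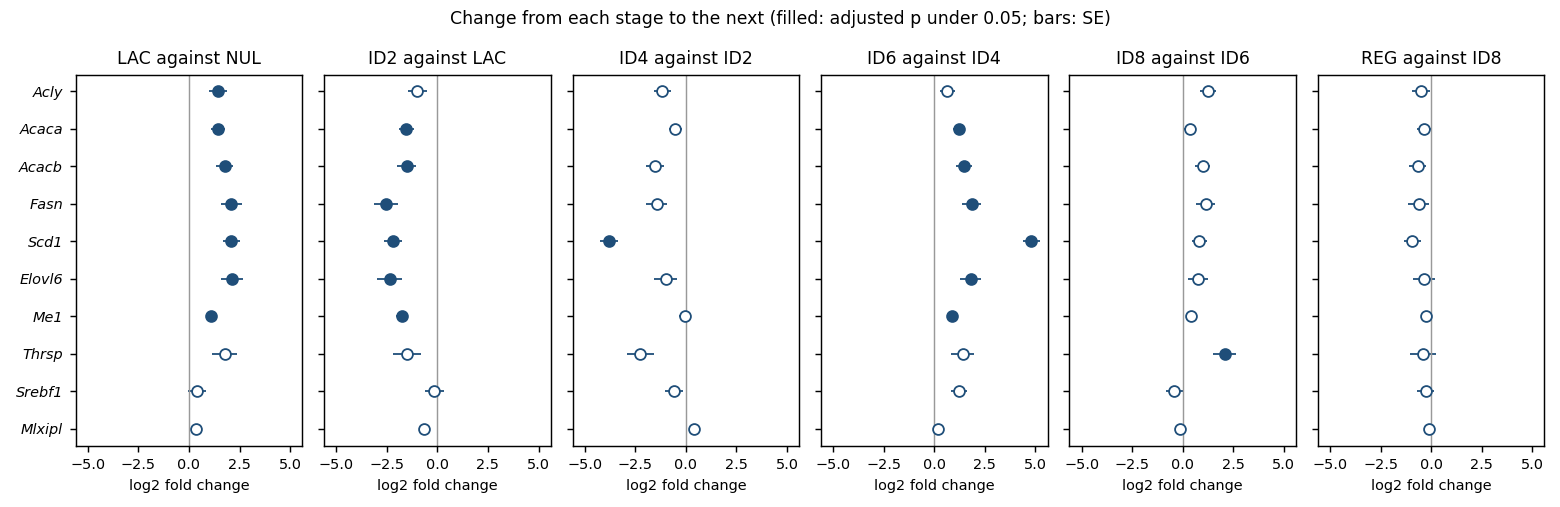
Log2 fold change of each of the 10 genes (rows) from each stage to the next (panels), with SE bars and filled points for an edgeR adjusted p under 0.05. Filled points number 7 in LAC against NUL, 6 in ID2 against LAC, 1 in ID4 against ID2, 6 in ID6 against ID4, 1 in ID8 against ID6 and 0 in REG against ID8.

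At day 8 the 3 animals lay far apart. In ID8 against ID6 only Thrsp passed, as given above, where 4.12% of all genes were called. Against NUL 0 of the 10 passed by edgeR, where 0.499% of all genes were called, and DESeq2 called 1. At an unadjusted p under 0.05 it was 8, beside 12.8% of all genes. Without ID8_14 it was 1 at the unadjusted p, for which the share of all genes is not given here. In that fit 0 passed by edgeR, where 0.304% of all genes were called. Scd1 came nearest, with all 3 ID8 mice above all NUL mice and 1.73 on the log2 scale (SE 0.41, adjusted p by edgeR 0.0614, and 0.219 without ID8_14). Against ID4 all 8 enzyme genes were higher in ID8, where 1.97% of all genes were called. Without ID8_14, where 0.876% of all genes were called, only 2 of these calls were left, Scd1 and Acacb, the latter with an edgeR adjusted p of 0.0358. With the title number range as a covariate 5 were left, and when the fit held these 2 groups alone 1, Scd1.

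At 4 weeks after weaning 0 of the 10 genes differed from NUL by edgeR, where 0.0852% of all genes were called. At an unadjusted p under 0.05 it was 1, Scd1 (log2 change 0.80, SE 0.38, adjusted p by edgeR 0.690), beside 7.17% of all genes, and DESeq2 called 0. The fitted log2 fold changes were positive for all 10 genes, with a median of 0.56 beside 0.0036 over all genes tested. Of the 10, 0 were without overlap, beside 3.70% of all genes. REG against ID8 also had 0 calls, where 0.0487% of all genes were called, with 1 gene at an unadjusted p under 0.05, beside 9.02% of all genes, and 0 by DESeq2. Without ID8_14, where 0.0835% of all genes were called, it had 0 calls by edgeR and 2 genes at an unadjusted p under 0.05. The share of all genes at that unadjusted p is not given for this fit. Against ID4 7 of the 10 genes were higher in REG, all enzyme genes but Acly, where 4.33% of all genes were called. Without REG_239 that count was 3, without ID4_13 it was 4, and with the title number range as a covariate it was 4.

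The spread between animals differed between stages and rested in part on single animals. For Fasn the coefficient of variation was 9.15% in ID4, 23.5% in LAC and 28.2% in NUL, against 55.5% in ID6 and 106% in ID8. Without ID6_230 it was 19.1% in ID6, without ID8_14 10.6% in ID8, without LAC_240 13.7% in LAC and without ID4_211 6.05% in ID4. For Elovl6 it was 4.27% in ID4 and 8.93% in LAC, against 61.8% in ID6 and 114% in ID8, or 25.6% without ID6_230 and 14.9% without ID8_14. It was 1.86% in LAC without LAC_213 and 2.18% in ID4 without ID4_211. For Srebf1 it was 36.3% in ID4 and 15.5% in ID6, another order. Acacb had 32.5% in ID4 and 32.4% in NUL, or 9.40% without ID4_15 and 16.1% without NUL_226. In REG the enzyme means of 2 mice, REG_203 and REG_239, lay 0.946 and 1.21 above NUL on the log2 scale, while REG_214 and REG_234 lay 0.0969 and 0.106 above it. No test of the difference in spread was made.

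Whether enzyme and regulator transcripts varied together between animals of 1 stage was examined in 16 relations, 8 enzyme genes with 2 regulators, and 0 passed the correction over the 16. Levels were log2(CPM + 1) with each stage mean removed, over 27 animals. For Fasn and Srebf1 Pearson's r was 0.722 (permutation p = 0.0043, adjusted 0.063) and Spearman's rho 0.622 (permutation p = 0.00837, adjusted 0.134). Without ID8_14 and REG_203, the animals farthest from the median of Srebf1, r was 0.544. For Thrsp and Srebf1 r was 0.699 (permutation p = 0.00787, adjusted 0.063) and rho 0.559 (permutation p = 0.0203, adjusted 0.157), and r was 0.500 without the same animals. Among the 20 animals numbered 200 and over, r was 0.547 for Fasn (permutation p = 0.0359, adjusted 0.575) and 0.551 for Thrsp (permutation p = 0.0836, adjusted 0.669). ID8_14 lay highest on both axes of both relations.

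The relations of Srebf1 with the other enzyme genes ran from an r of 0.021 for Acacb to 0.598 for Elovl6, and that with Scd1 was 0.266 (permutation p = 0.287, adjusted 0.449). The relations of Mlxipl ran from an r of 0.239 with Thrsp to 0.455 with Elovl6 (permutation p = 0.148, adjusted 0.396). Across all 27 animals with stages left in, the likeness of each gene to the mean of the other enzyme genes was highest for Fasn (r = 0.971) and Elovl6 (r = 0.962) and lowest among the enzymes for Scd1 (r = 0.862). It was 0.453 for Srebf1 and 0.320 for Mlxipl. These likenesses are descriptions over animals that share stages.

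**Figure D4:**
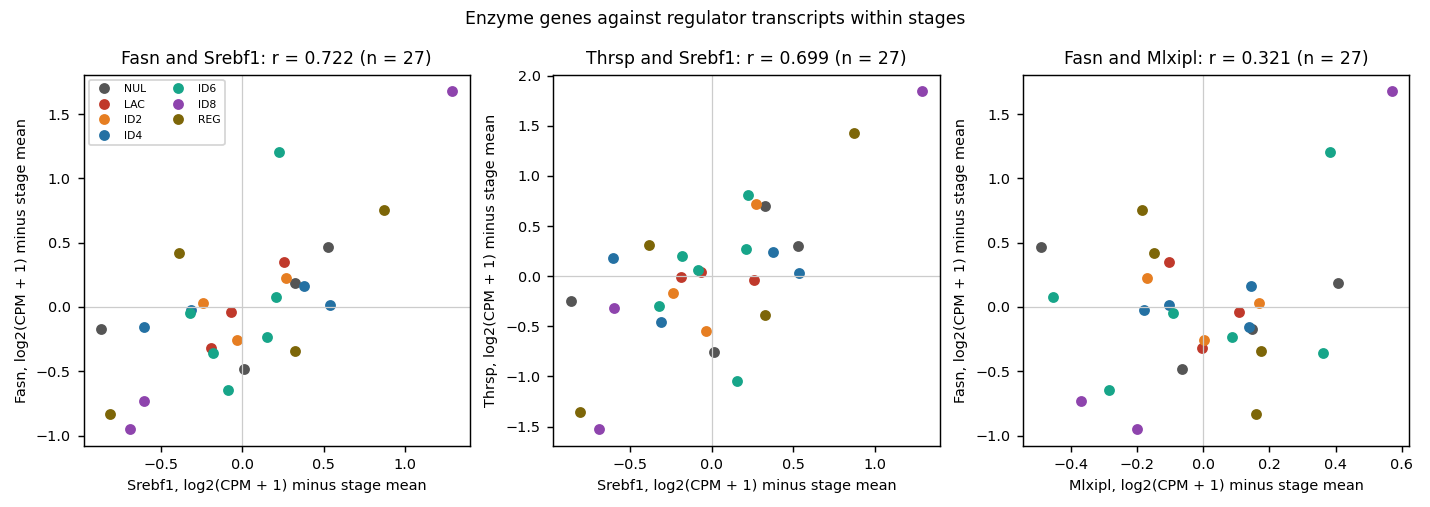
Log2(CPM + 1) minus the stage mean for an enzyme gene (y axis) against a regulator gene (x axis), 1 dot per animal (n = 27), coloured by stage. Fasn with Srebf1 has r = 0.722, Thrsp with Srebf1 r = 0.699 and Fasn with Mlxipl r = 0.321, and the ID8 animal at the top right of each panel is ID8_14.

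The 5 other genes most like the mean of the enzyme genes, of 9349 genes with a mean of at least 5 CPM, were Pnpla3 (r = 0.965), Tkt (r = 0.950), Chrna4 (r = 0.945), Pklr (r = 0.944) and Acss2 (r = 0.941), over 27 animals. The same 5 led by Spearman's rho. Pklr, liver pyruvate kinase, had 225.96 ± 27.8 CPM in NUL, 578 ± 7.18 in LAC and 141 ± 16.4 in ID4. Acss2, which makes acetyl-CoA from acetate, had 146 ± 34.2, 346 ± 45.5 and 60.6 ± 9.81 CPM in the same stages. Tkt, transketolase, had 108 ± 17.4, 208 ± 6.90 and 77.4 ± 6.43 CPM.

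Genes that feed the pathway changed too. Of 16 genes of carbon and NADPH supply, 10 rose and 0 fell in LAC against NUL, where 11.2% of all genes were called, with a median log2 fold change of 0.45 beside -0.01 over all genes. Without LAC_213 the count was 5. The largest rises were in G6pdx, the first enzyme of the pentose phosphate pathway, from 7.36 ± 1.45 to 33.0 ± 8.17 CPM (log2 change 2.16, SE 0.39, adjusted p by edgeR 0.00105), and in Pklr (log2 fold change 1.36). From LAC to ID2, where 16.1% of all genes were called, 10 fell and 0 rose (6 with the clock covariate), among them G6pdx, from 33.0 ± 8.17 to 9.32 ± 2.86 CPM (log2 change -1.82, SE 0.42, adjusted p by edgeR 0.00625).

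In ID4 against NUL, where 4.25% of all genes were called, 3 of the 16 supply genes fell (Idh1, Slc25a1 and Tkt) and 0 rose. The count was 6 with DESeq2 and 7 when the fit held these groups alone. The first 2 encode cytosolic isocitrate dehydrogenase and the mitochondrial citrate carrier, with log2 fold changes of -0.52 and -0.49. In ID6 against ID4, where 8.53% of all genes were called, 6 rose, led by Acss2 (log2 fold change 1.49) and G6pdx (1.16), and 2 fell, among them H6pd (log2 fold change -0.35). H6pd makes NADPH inside the endoplasmic reticulum. These 8 calls were 3 with the title number range as a covariate and 5 without ID4_13, ID4_215 or ID6_209.

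Of 20 genes of elongation, desaturation and triglyceride synthesis, 19 were tested, and 8 rose and 0 fell in LAC against NUL, again beside 11.2% of all genes. Without LAC_240 the count was 5. Pnpla3, which encodes a lipid droplet protein, went from 5.67 ± 3.37 to 52.0 ± 2.14 CPM (log2 change 3.19, SE 0.86, adjusted p by edgeR 0.0191). Scd2, a desaturase gene of the same family as Scd1, went from 6.53 ± 1.90 to 18.3 ± 7.34 CPM. From LAC to ID2, where 16.1% of all genes were called, 6 fell, led by Pnpla3 and Gpam (log2 fold changes -3.87 and -1.57), and 1 rose, Elovl2 (0.40). In ID4 against NUL, where 4.25% of all genes were called, 6 fell and 0 rose, led by Acsl3 (log2 change -1.62, SE 0.22, adjusted p by edgeR 0.000184) and Acsl5 (-0.77), which activate fatty acids to acyl-CoA. In ID6 against ID4, where 8.53% of all genes were called, 4 rose and 0 fell, led by Pnpla3 (log2 fold change 3.46) and Acsl3 (1.40), and 2 were called with the title number range as a covariate.

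Of 26 genes that act with or on SREBP1 and ChREBP, 3 passed in LAC against NUL, a share near the 11.2% of all genes, and 1 without NUL_220 or when the fit held these groups alone. In that comparison 1 rose, Scap, which escorts SREBP to its cleavage (log2 change 0.42, SE 0.08, adjusted p by edgeR 0.00141), and 2 fell, the coactivator gene Ppargc1b (-0.87) and Txnip (-0.62), a known ChREBP target that restrains glucose uptake. In ID2 against LAC 3 rose, among them Trib3 (1.08) and Ppargc1b (0.94), and 1 fell, Insig1 (-1.52), again near the share of all genes called (16.1%). That count of 4 was 1 without ID2_39 or LAC_213, and 2 without ID2_31 or with the title number range or sequencing runs as a covariate. In ID4 against NUL 3 fell and 1 rose, beside 4.25% of all genes, and 2 were called without ID4_15, NUL_220, NUL_221 or NUL_226 or with the title number covariate. Insig1, which holds SREBP in the endoplasmic reticulum and is itself an SREBP target, fell from 373 ± 112 to 70.04 ± 27.8 CPM (log2 change -2.41, SE 0.43, adjusted p by edgeR 0.00222). Mid1ip1, a relative of Thrsp, fell from 70.3 ± 12.5 to 34.5 ± 4.31 CPM (log2 change -1.03, SE 0.28, adjusted p by edgeR 0.0376).

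From ID4 to ID6 both turned back up, Insig1 to 194 ± 69.4 CPM (log2 change 1.47, SE 0.39, adjusted p by edgeR 0.0246) and Mid1ip1 to 70.02 ± 10.9 CPM (log2 change 1.02, SE 0.26, adjusted p by edgeR 0.0179). In the same comparison Trib3 fell (-0.78), as did Rxra (-0.34), the partner of the liver X receptors that act on Srebf1. These 4 calls were 2 without ID4_13 or ID4_215 or with the title number covariate, beside 8.53% of all genes. The medians of this list were -0.00 in LAC against NUL, 0.02 in ID4 against NUL and -0.03 in ID6 against ID4, near those of all genes tested (-0.01, -0.02 and 0.01).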

How the data were processed

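RNA from 27 whole livers was extracted with Trizol and made into libraries with the NEBNext Ultra RNA kit, per the labels. Per the submitters' processing notes, STAR 2.6.1a and RSEM 1.3.1 were used, with builds mm10 and GRCm38. The authors' deposited expected counts are RSEM's estimates of reads per gene, per the file headers, and are not scaled between libraries. The authors' deposited TPM, per the file headers, are scaled by length within each library. Of the genes with a count above 0 in a library, 17.45% to 18.78% had counts that were not whole, as arises when reads are shared between genes. For the 10 genes the fractional part was at most 0.00269% of the count.

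Identifiers were matched to GENCODE M21 on GRCm38. Expected counts were rounded and fitted with edgeR 4.0.16 in R 4.3.3 (filterByExpr by stage, TMM, robust quasi-likelihood fit of all 27 libraries and 7 groups, two-sided F tests). SE is the log2 fold change over the root of F. P-values were adjusted by Benjamini-Hochberg over the 16428 genes of each comparison and called under 0.05. Each animal gave 1 library, and no title number occurs in more than 1 group, so nothing was paired. Relations between genes used 100000 permutations within stages. Alternatives were DESeq2 1.42.0, limma 3.58.1 on log2(TPM + 1) or log2(TPM + 0.1), other filters, scalings and covariates, and leaving out each animal. The fit was checked on simulated counts. The 10 genes and the lists of related genes were chosen with earlier results of these data known. Of each list, up to 2 called genes with the largest rise and fall in 5 comparisons, with at least 1 CPM, were named. Some genes that met this rule are not reported here. Libraries carry no molecular identifiers, so counting limits cover counting error only.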

Additional observations from a re-analysis of the deposited data

Results flagged for a closer look

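Of 40 groups of 4 or 6 animals examined gene by gene, 3 held an animal set apart by a gap of more than the 95% critical share of the group's range (0.829 for 4 animals and 0.625 for 6). Chance flags about 1 in 20 groups. Fasn in ID6_230 was 730 CPM, while the other ID6 animals had 202 to 334. Elovl6 in the same animal was 216.4 CPM, against 44.4 to 89.2 in the others. Acaca in ID4_15 was 73.6 CPM, against 55.7 to 58.3 in the other ID4 animals, and this library also carried acinar pancreas RNA, whose part in the value was not tested. Groups of 3 animals, LAC, ID2 and ID8, were not examined in this way, so ID8_14 is described in the results without this rule.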

How the results depend on the processing

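In no alternative run did a called difference of any of the 10 genes change direction, and 112 of 1147 refits of 54 gene-level calls lost the threshold. At an adjusted p under 0.01 in the same fit, 19 of the 54 did not pass. The count of the 10 genes called was 4 in LAC against NUL at an adjusted p under 0.01. In ID4 against NUL it was 2, and 1 without the filter, 4 without robust estimation, 1 with the title number covariate, 5 with DESeq2, 7 with only these groups, 1 without the 3 libraries with pancreas RNA (added after seeing the data), 1 at 0.01 and 1 to 2 leaving out single animals. In ID4 against ID2 it was 1, and 3 without robust estimation, 3 with DESeq2, 6 with only these groups and 1 to 2 leaving out animals. In ID6 against ID4 it was 6, and 2 with the title number covariate, 9 with only these groups and 4 without the 3 libraries with pancreas RNA. It was 1 at 0.01 and 2 to 6 leaving out animals. In ID8 against ID6 it was 1, and 0 without the filter, with the title number or clock covariate, on either TPM scale, with only these groups or at 0.01, 2 without robust estimation or with DESeq2 and 0 to 2 leaving out animals. In ID8 against ID4 it was 8, and 5 with the title number covariate, 1 with only these groups, 5 at 0.01 and 2 to 8 leaving out animals. In REG against ID4 it was 7, and 4 with the title number covariate, 3 at 0.01 and 3 to 7 leaving out animals. In ID8 against NUL it was 0, and 1 without robust estimation or with DESeq2, and in ID2 against NUL 0, and 1 with only these groups. Neighbouring stages that passed numbered 1, and 2 without robust estimation, with the clock covariate, on either TPM scale or with DESeq2, and 1 to 6 leaving out animals. The cause was not tested. On log2(TPM + 0.1) the median of all genes moved to 0.126 in ID6 against ID4 and -0.111 in ID8 against ID6. No paired analysis was possible because no title number occurs in more than 1 group. The counts of the 10 genes were 906 or more in every library, and there were 3 to 6 animals per stage.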
